A study of Mus musculus with 24 samples.

Results

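The genes described here are 10 acid-base genes of the kidney's intercalated cells: Rhbg, Rhcg, Slc4a1, Slc4a9, Slc26a4, Atp6v1b1, Atp6v0d2, Atp6v1g3, Foxi1 and Aqp6. Each was represented by the probe set that carries its symbol alone, and each had 1 such probe set, so that 10 of the 18782 genes with a single-symbol probe set on the array were followed. Gene expression was measured in kidneys of 12-week-old mice of 2 inbred Schlager lines, the hypertensive BPH/2J and the normotensive BPN/3J, with 6 males and 6 females of each line and 1 Affymetrix Mouse Gene 1.0 ST array for each mouse. The labels name no transgene or treatment in any group. Kidneys were collected in the inactive period of the day, and the study asked how the renal transcriptome differed between the lines in each sex. Because the lines were bred apart, differences tied to blood pressure and other differences between the lines cannot be told apart in these groups. Values are log2 RMA expression, so a difference of 1 is a doubling, and levels were compared between groups for the same gene and never between genes.

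Intercalated cells are scattered through the connecting tubule and collecting duct among the principal cells, which carry the epithelial sodium channel and aquaporin 2. Type A intercalated cells secrete acid: a vacuolar proton pump (V-ATPase) in the apical membrane moves protons into the urine, and the anion exchanger Slc4a1 (AE1) in the basolateral membrane returns bicarbonate to the blood. Type B cells run the other way, with the chloride/bicarbonate exchanger pendrin (Slc26a4) at the apical membrane and Slc4a9 (AE4) at the basolateral one. Rhbg and Rhcg are ammonia transporters of the collecting duct, through which ammonia reaches the urine and buffers secreted acid. The forkhead factor Foxi1 is required for intercalated cells to form and for them to express pump and transporter genes, and Aqp6 is an aquaporin of intracellular vesicles in type A cells.

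Sequence upstream of the transcription start was used for 6 of the 10 genes, from RefSeq (GRCm38.p6, a reference strain and not the Schlager lines). These 250 bases were searched on both strands for the forkhead core TAAACA. A match was found in 1 of the 6 genes, Atp6v1b1, 98 bases before the start, and in 12.0% of 32851 mouse promoters searched the same way. The 250 bases before the start are shown for the factor itself, for the gene that holds the motif, for a pump subunit that was higher in BPH/2J of both sexes, and for the ammonia transporter that did not differ by strain, with the motif, here as its reverse complement, in capitals.
Foxi1, chr11:34208090-34208339, minus strand: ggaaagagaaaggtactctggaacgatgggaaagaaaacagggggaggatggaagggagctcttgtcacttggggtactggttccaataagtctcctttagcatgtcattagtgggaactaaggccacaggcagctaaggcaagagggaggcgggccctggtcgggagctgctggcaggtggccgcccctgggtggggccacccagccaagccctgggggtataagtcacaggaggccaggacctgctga
Atp6v1b1, chr6:83742767-83743016, plus strand: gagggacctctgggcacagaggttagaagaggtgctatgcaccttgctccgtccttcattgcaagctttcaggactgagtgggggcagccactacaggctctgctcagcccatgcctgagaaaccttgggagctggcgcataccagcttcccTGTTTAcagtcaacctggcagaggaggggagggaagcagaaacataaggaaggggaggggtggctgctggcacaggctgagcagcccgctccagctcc
Atp6v1g3, chr1:138273488-138273737, plus strand: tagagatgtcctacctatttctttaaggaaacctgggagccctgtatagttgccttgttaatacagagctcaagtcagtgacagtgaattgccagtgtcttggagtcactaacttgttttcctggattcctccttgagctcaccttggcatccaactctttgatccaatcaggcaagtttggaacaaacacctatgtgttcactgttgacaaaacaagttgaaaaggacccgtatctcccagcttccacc
Rhcg, chr7:79617658-79617907, minus strand: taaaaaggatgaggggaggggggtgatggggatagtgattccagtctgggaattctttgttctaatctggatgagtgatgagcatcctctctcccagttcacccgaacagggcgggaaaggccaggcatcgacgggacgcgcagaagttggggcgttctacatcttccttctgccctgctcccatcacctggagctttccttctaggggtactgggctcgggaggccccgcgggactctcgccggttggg
Of these 4 sequences only that of Atp6v1b1 holds the motif, and neither Slc26a4 nor Aqp6 holds it in the same window.

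Arrays of a group correlated at 0.981 to 0.997 with each other, and array medians lay between 6.89 and 6.97. Defining kidney markers were among the brightest probe sets in every group (Umod 13.45 to 13.76, Slc34a1 13.54 to 13.73). Liver and adrenal transcripts varied between arrays: the mean of 11 hepatocyte genes reached 12.12 and 12.36 in BPN/3J female arrays 2 and 5 against 6.93 to 10.40 in the other 22 arrays, and the mean of 8 adrenal cortex genes ran from 5.37 to 10.23. All 10 intercalated cell genes were measured well above the dim end of the array, with means over the 24 arrays from 8.998 (Foxi1) to 10.96 (Rhcg).

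All 10 genes had their highest mean in BPH/2J females, and 9 had their lowest in BPN/3J males. The exception was Rhcg, whose means in the male groups differed by -0.005. The middle groups were not ordered alike: BPH/2J males lay below BPN/3J females for 8 genes and above them for Rhbg and Atp6v1g3. With P values adjusted by Benjamini-Hochberg over the whole array of 28853 probe sets and a threshold of 0.05, 5 of the 10 genes were higher in BPH/2J than in BPN/3J males and 8 of 10 in females, against 7.48% and 8.01% of all probe sets called higher. The female count was 5 of 10 without BPN/3J female arrays 2 and 5, which hold the most liver transcript, where 5.55% of probe sets were called higher. By sex, 8 of 10 were higher in females than in males of BPN/3J and 10 of 10 in BPH/2J, against 14.4% and 15.6% of all probe sets, and the 8 were higher in both strains, against 10.2% of probe sets. None was lower in any of these comparisons. The study's own threshold, a Bonferroni-adjusted P under 0.05, was passed in the strain comparisons by Rhbg alone in each sex, where 1.14% of probe sets in males and 1.07% in females were called higher. The comparisons share groups with each other (each group serves in a strain and a sex comparison), so their calls are not separate evidence.

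**Figure D1:**
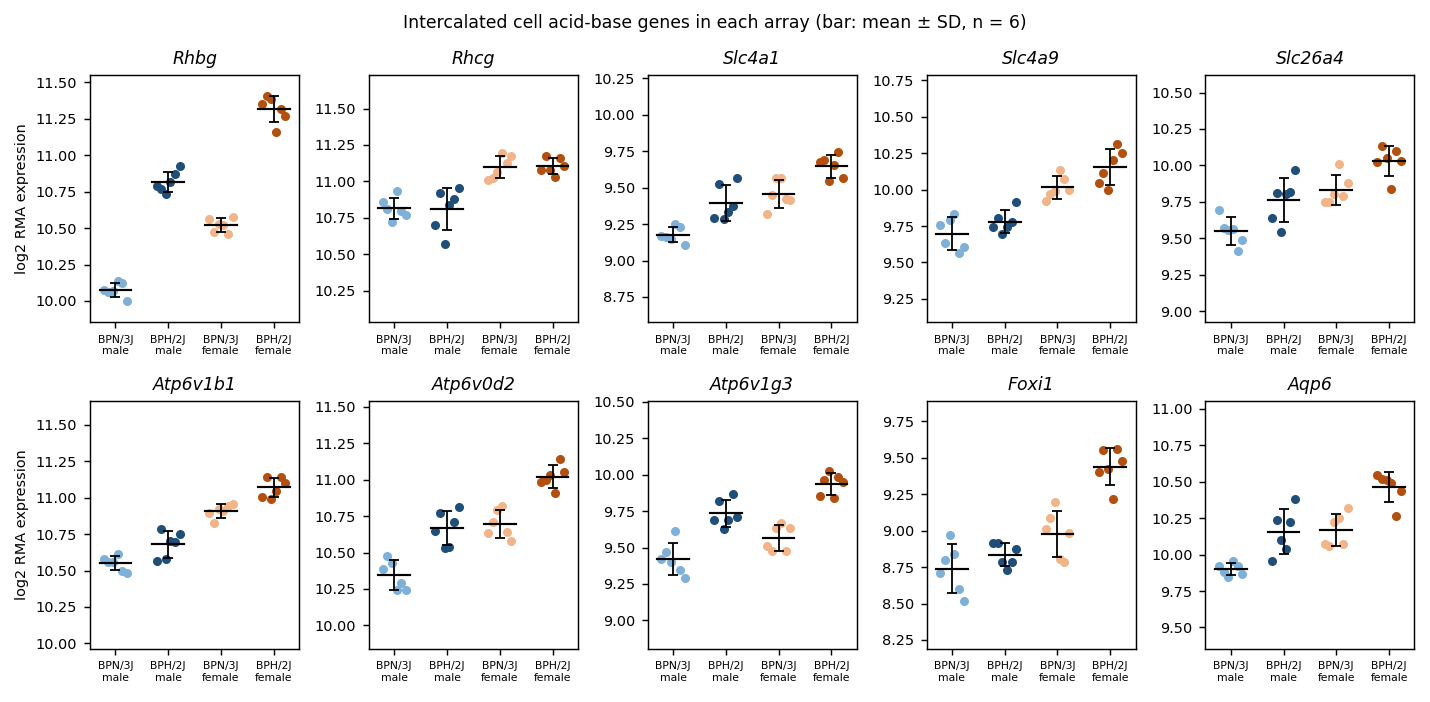
log2 RMA expression of each of the 10 genes on every array, in 4 groups of 6 mice, with the bar at the mean ± SD and all panels spanning the same number of log2 units. Rhbg shows 4 separate bands, Rhcg a step between males and females but none between strains, and Foxi1 stands apart in BPH/2J females, where all 6 arrays lie above 9.2 and above every other array.

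Among the ammonia transporters, Rhbg, of the basolateral membrane, had the largest strain difference of the 10 genes in both sexes. Its expression in males was 10.003 to 10.14 (median 10.07) in BPN/3J and 10.73 to 10.93 (median 10.80) in BPH/2J. Female arrays lay at 10.46 to 10.58 (median 10.53) and 11.16 to 11.41 (median 11.34). The 4 groups did not overlap at all, in the order BPN/3J males, BPN/3J females, BPH/2J males, BPH/2J females. In BPH/2J males Rhbg exceeded the BPN/3J level 1.67-fold (log2 difference 0.74, SE 0.0417, Bonferroni-adjusted P = 4.38e-06) and in females 1.74-fold (0.80, SE 0.0449, Bonferroni-adjusted P = 7.13e-06), and its strain difference in females exceeded that in males by only 0.06 (SE 0.0582, adjusted P = 0.777). It was also higher in females, by 0.44 (SE 0.0364) in BPN/3J and 0.50 (SE 0.0490) in BPH/2J, both past the Bonferroni threshold, which 1.96% and 2.1% of probe sets passed as higher in females. These are samples of kidney tissue, in which more cells of a type and more RNA per cell cannot be told apart.

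Liver also expresses Rhbg, so its level was set beside the hepatocyte genes. On the 2 female BPN/3J arrays richest in liver transcript, numbers 2 and 5, Rhbg stood at 10.47 and 10.46, the 2 lowest values of that group. Without these arrays the female strain difference in Rhbg was 0.77 (SE 0.0512, adjusted P = 2.40e-06). Of the 11 hepatocyte genes measured, 1 was higher and none lower in BPH/2J males, and 1 was lower in BPH/2J females. The gene higher in males was Ttr, by 3.15 (SE 0.345), at 11.48 to 11.96 in BPH/2J and 7.46 to 9.66 in BPN/3J. Its difference in females was 2.04 (SE 1.06, adjusted P = 0.258). Ttr is part of the hepatocyte mean used here, so 1 gene of that mean itself differed by strain in males. A second probe set that Rhbg shares with the gene Tsacc was dim, at a mean of 6.99, and was not called: its strain difference was 0.07 in males (adjusted P = 0.579) and -0.26 in females (adjusted P = 0.0560), so the Rhbg result rests on a single probe set.

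Rhcg, the apical partner of Rhbg, did not follow it across strains. In males, Rhcg was 10.72 to 10.93 (median 10.81) in BPN/3J and 10.57 to 10.95 (median 10.86) in BPH/2J. The female values were 11.01 to 11.19 (median 11.10) and 11.03 to 11.17 (median 11.09). Strain groups overlapped almost entirely, while neither female group overlapped its male counterpart. The strain difference was -0.005 in males, with a 95% interval from -0.14 to 0.13, and 0.007 in females, with an interval from -0.09 to 0.10, and the sign of both turned when single arrays were left out, that in males also with the scaling. Rhcg was higher in females by 0.28 (SE 0.0469, adjusted P = 0.000491) in BPN/3J and 0.29 (SE 0.0620, adjusted P = 0.00277) in BPH/2J.

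**Figure D2:**
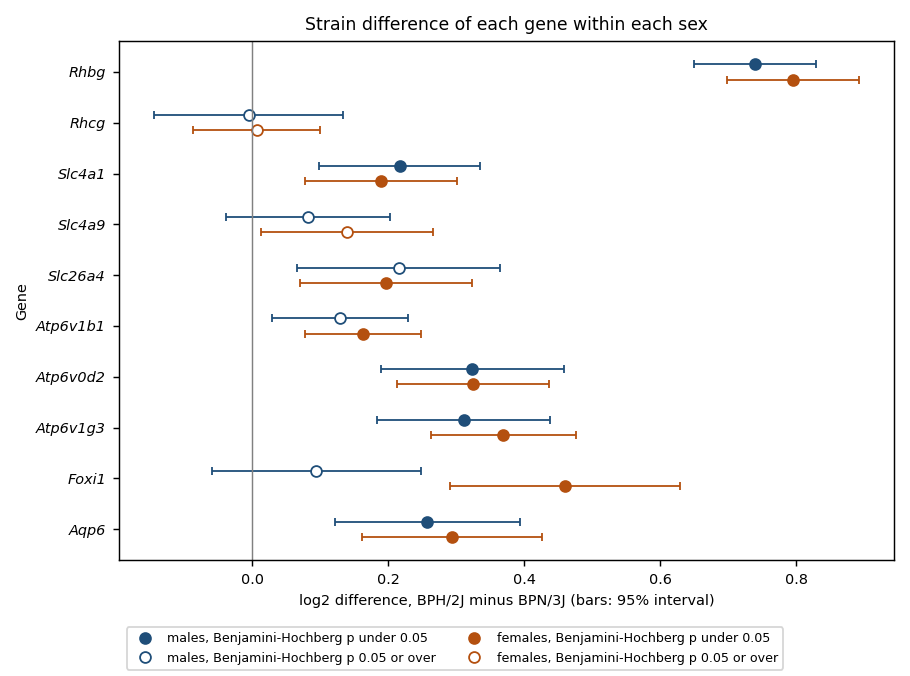
Difference in log2 RMA expression between BPH/2J and BPN/3J for each gene in males and females, with 95% intervals from the moderated test on 12 arrays. Filled points have a Benjamini-Hochberg adjusted P under 0.05. Rhbg lies between 0.74 and 0.80 in both sexes, Rhcg at 0, and Foxi1 at 0.09 in males and 0.46 in females.

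The anion exchangers moved by smaller amounts. Slc4a1, the basolateral exchanger of type A cells, was 9.11 to 9.25 (median 9.16) in BPN/3J males and 9.29 to 9.57 (median 9.35) in BPH/2J males, without overlap. The female ranges were 9.32 to 9.57 (median 9.44) in BPN/3J and 9.54 to 9.74 (median 9.67) in BPH/2J, where the ranges met at their edges. The strain difference was 0.22 in males (SE 0.0550, adjusted P = 0.0159) and 0.19 in females (SE 0.0516, adjusted P = 0.0257). Leaving out any 1 array kept the call in males, but in females it was lost in 7 of 12 such omissions, with adjusted P up to 0.0574. Those 7 were BPH/2J female arrays 1, 2, 4 and 5 and BPN/3J female arrays 1, 5 and 6. Red blood cells express Slc4a1 as well, and 8 of 12 red blood cell genes were measured here. Averaged per array they spanned 6.32 to 6.43 and 6.21 to 6.37 in male BPN/3J and BPH/2J, and 6.15 to 6.32 and 6.03 to 6.27 in the females of these lines, so it was lowest in the group where Slc4a1 was highest. No red blood cell gene was higher in BPH/2J in either sex, 2 were lower in males and 1, the haem synthesis enzyme Alas2, was lower in females by 0.87 (SE 0.168). The red cell Rh glycoprotein Rhag was near the dim end of the array, at 4.27 to 4.74 over all 24 arrays.

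Slc26a4 (pendrin) and Slc4a9 are the exchangers of type B cells. Slc26a4 was 9.42 to 9.70 (median 9.56) in BPN/3J males, 9.55 to 9.97 (median 9.81) in BPH/2J males, 9.75 to 10.01 (median 9.80) in BPN/3J females and 9.84 to 10.13 (median 10.04) in BPH/2J females. Each of these neighbouring ranges overlapped. Its strain difference was alike in size in the sexes, at 0.22 in males (SE 0.0691, adjusted P = 0.0521) and 0.20 in females (SE 0.0583, adjusted P = 0.0383), but passed the threshold in females alone. That call was lost in 10 of 12 omissions of 1 array, and was kept only without BPH/2J female array 4 or BPN/3J female array 4. In males it came under the threshold without BPH/2J male array 1 or 3 or BPN/3J male array 1. The 2 strain differences themselves differed by -0.02 (SE 0.0917). Slc4a9 was not called between strains, with a difference of 0.08 in males (95% interval -0.04 to 0.20, adjusted P = 0.400) and 0.14 in females (95% interval 0.01 to 0.27, adjusted P = 0.1498). Between the sexes it was one of the more strongly separated genes: in BPN/3J the males spanned 9.57 to 9.84 and the females 9.93 to 10.14, and in BPH/2J the males spanned 9.69 to 9.92 and the females 9.997 to 10.31. Slc4a9 was thus higher in females of both strains without overlap, by 0.32 (SE 0.0557, adjusted P = 0.000767) and 0.37 (SE 0.0586, adjusted P = 0.000303).

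Of the pump subunits, Atp6v0d2, a subunit of the membrane sector, and Atp6v1g3, a kidney form of a stalk subunit of the cytosolic sector, had the steadiest strain differences after Rhbg. Atp6v0d2 was 10.24 to 10.48 (median 10.34) in BPN/3J males and 10.53 to 10.82 (median 10.68) in BPH/2J males. In females it was 10.58 to 10.82 (median 10.68) and 10.91 to 11.14 (median 11.02). BPH/2J exceeded BPN/3J on every array of the same sex, by 0.32 in males (SE 0.0623, adjusted P = 0.00266) and 0.33 in females (SE 0.0516, adjusted P = 0.000743). Male BPH/2J and female BPN/3J overlapped, since the female excess of 0.35 in each strain (SE 0.0571 in BPN/3J, 0.0575 in BPH/2J) was close to the strain difference.

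Atp6v1g3 was 9.29 to 9.61 (median 9.41) in BPN/3J males and 9.63 to 9.87 (median 9.70) in BPH/2J males. For females the ranges were 9.47 to 9.67 (median 9.57) and 9.84 to 10.02 (median 9.96). Strains did not overlap in either sex, and Atp6v1g3 was the one gene besides Rhbg whose 4 means ran BPN/3J males, BPN/3J females, BPH/2J males, BPH/2J females. The strain difference was 0.31 in males (SE 0.0589, adjusted P = 0.00239) and 0.37 in females (SE 0.0492, adjusted P = 0.000174). Its sex difference was the smallest of the 10 genes in both strains, at 0.14 in BPN/3J (SE 0.0582, adjusted P = 0.0832, but 0.0207 without BPN/3J male array 4) and 0.20 in BPH/2J (SE 0.0502, adjusted P = 0.00800).

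Atp6v1b1, the B1 subunit of the cytosolic sector that marks the intercalated cell pump, separated the sexes in both strains. Male arrays spanned 10.49 to 10.62 (median 10.56) for BPN/3J and 10.56 to 10.78 (median 10.70) for BPH/2J, and female arrays 10.83 to 10.96 (median 10.92) and 10.99 to 11.14 (median 11.07), so every female array lay above every male array. Females exceeded males by 0.36 in BPN/3J (SE 0.0366, Bonferroni-adjusted P = 0.00705) and by 0.39 in BPH/2J (SE 0.0483, Benjamini-Hochberg adjusted P = 4.01e-05). The strain difference was 0.13 in males (SE 0.0463, adjusted P = 0.0819) and 0.16 in females (SE 0.0393, adjusted P = 0.0133). Among the omissions of 1 array, that in males was called only without BPH/2J male array 1 (adjusted P = 0.0434). The female call was lost without BPN/3J female arrays 2 and 5 (0.15, adjusted P = 0.0521). This is the gene that holds the forkhead core in the sequence shown above.

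Foxi1, the transcription factor, stood apart in BPH/2J females. It was 8.52 to 8.97 (median 8.75) in BPN/3J males and 8.73 to 8.92 (median 8.83) in BPH/2J males, which overlapped. In females it was 8.79 to 9.19 (median 8.998) in BPN/3J and 9.22 to 9.56 (median 9.45) in BPH/2J, which did not. Foxi1 was 1.38-fold higher in BPH/2J than in BPN/3J females (0.46, SE 0.0783, adjusted P = 0.00124), whereas in males the difference was 0.09 (95% interval -0.06 to 0.25, adjusted P = 0.455). Within BPH/2J, females exceeded males 1.52-fold (0.60, SE 0.0601, Bonferroni-adjusted P = 0.00528), the largest sex difference of the 10 genes, and within BPN/3J by 0.24 (SE 0.0871, Benjamini-Hochberg adjusted P = 0.0566). The latter was called without BPN/3J female array 4 or 5 or BPN/3J male array 3.

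A test of the strain-by-sex interaction, that is of the female strain difference minus the male one, called none of the 10 genes, where 1.76% of all probe sets were called. The only gene with an unadjusted P under 0.05 was Foxi1, at 0.37 (SE 0.109, 95% interval 0.14 to 0.59, unadjusted P = 0.00267, adjusted P = 0.0987). It passed the threshold without BPN/3J male array 6 (adjusted P = 0.0498) or without BPH/2J female array 4 (adjusted P = 0.0488), and ran up to 0.170 over the other omissions. For the remaining 9 genes the female strain difference differed from the male one by -0.03 to 0.06.

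Aqp6 was 9.85 to 9.96 (median 9.90) in BPN/3J males and 9.96 to 10.38 (median 10.16) in BPH/2J males, which did not overlap, although the closest arrays of the 2 groups differed by less than the spread within either. Among females it was 10.06 to 10.32 (median 10.15) and 10.26 to 10.55 (median 10.50), with overlap. BPH/2J exceeded BPN/3J by 0.26 in males (SE 0.0631, adjusted P = 0.0130) and by 0.29 in females (SE 0.0611, adjusted P = 0.00512). Females exceeded males by 0.27 (SE 0.0508) and 0.30 (SE 0.0716), both called. The call in BPH/2J was lost with the hepatocyte and adrenal cortex means as covariates (0.24, SE 0.0922, adjusted P = 0.0906).

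**Figure D3:**
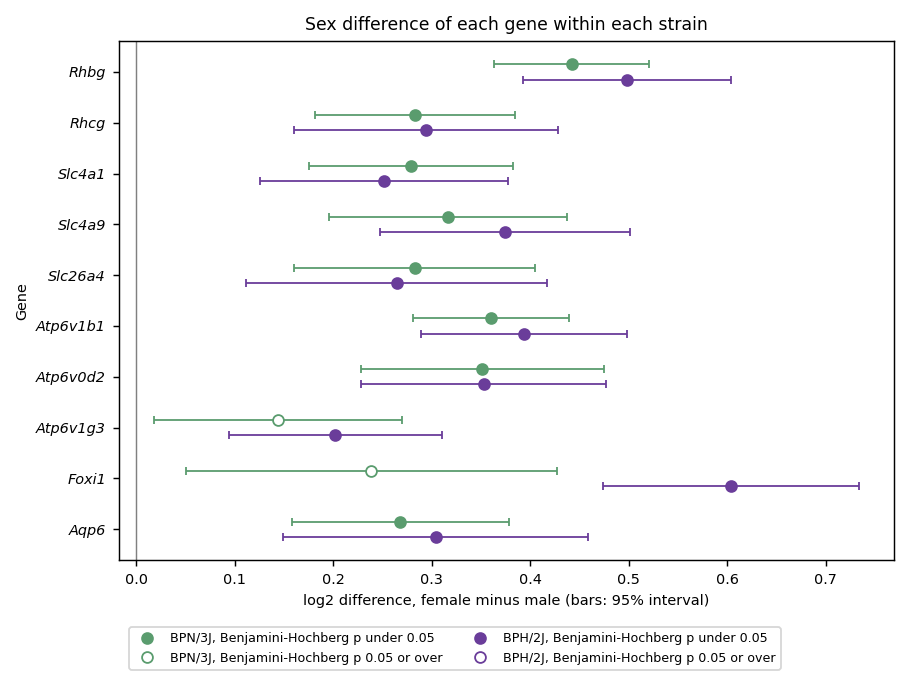
Difference in log2 RMA expression between females and males for each gene in BPN/3J and BPH/2J, with 95% intervals from the moderated test on 12 arrays. Filled points have a Benjamini-Hochberg adjusted P under 0.05. All 20 differences are above 0, from 0.14 (Atp6v1g3 in BPN/3J) to 0.60 (Foxi1 in BPH/2J).

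Set side by side, Rhbg, Slc4a1, Atp6v0d2, Atp6v1g3 and Aqp6 were higher in BPH/2J in both sexes, where 4.19% of probe sets were called higher in both. Of these, all but Atp6v1g3 were also called higher in females of both strains. The median strain difference of the 10 genes was 0.22 in males and 0.25 in females, against 0.00 and 0.02 over all probe sets, and the median sex difference was 0.28 in BPN/3J and 0.33 in BPH/2J, against -0.02 and -0.003. In each strain comparison 5 of the 10 genes separated the groups without overlap in the direction of BPH/2J, against 4.7% of all probe sets in males and 4.99% in females. Only Rhbg, Atp6v0d2 and Atp6v1g3 did so in both sexes. Female and male arrays were separated for 8 genes in BPN/3J and 6 in BPH/2J, against 8.46% and 9.23% of probe sets.

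Other genes ascribed to intercalated cells, 20 of 22 measured, moved mostly the same way. At an adjusted P under 0.05, 9 rose and 1 fell in the BPH/2J comparison of males and 11 rose and none fell in that of females, where 15.2% and 14.5% of all probe sets were called in either direction, and their median strain differences were 0.15 and 0.20. The 4 with the largest mean differences were Atp4a, a subunit of the gastric-type proton/potassium pump (2.04 in males, SE 0.126, and 2.40 in females, SE 0.0550), the carbonic anhydrase Car15 (0.62 and 0.71), the oxoglutarate receptor Oxgr1 of type B cells (0.62 and 0.60) and the potassium channel subunit Kcnma1 (0.25 and 0.77). All 4 were called in both sexes. Kcnma1 was the only one of the 20 with a called interaction (0.52, SE 0.131, adjusted P = 0.0402), but in 19 of 24 omissions of 1 array no gene of this list was called. Unlike the 10 genes above, Kcnma1 was lower in females, by 0.88 in BPN/3J and 0.36 in BPH/2J. Between the sexes 11 of the 20 were higher and 2 lower in females of BPN/3J, and 15 higher and 1 lower in BPH/2J. Of all 28853 probe sets 4156 were called higher and 4268 lower in females of BPN/3J, and 4493 and 3856 in BPH/2J. The sex counts of the lists below have the same background.

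The other V-ATPase subunits, among them widely expressed forms, were called in both directions. Of 20 measured, male BPH/2J mice had 5 higher and 2 lower, and female BPH/2J mice 4 higher and 3 lower, with medians of 0.03 and 0.004. Between the sexes 3 were higher and 4 lower in females of BPN/3J, and 2 higher and 8 lower in BPH/2J. The paired isoforms of the C subunit went opposite ways: Atp6v1c2, found in kidney and few other tissues, was higher in BPH/2J by 0.35 in males (SE 0.0979) and 0.39 in females (SE 0.0532), while the widely expressed Atp6v1c1 was lower by 0.20 (SE 0.0402) and 0.43 (SE 0.0415). Atp6v1g1, the widely expressed form of the subunit that Atp6v1g3 provides in the kidney, was higher by 0.33 and 0.25, as was the accessory subunit Atp6ap2 by 0.19 and 0.17. All of these were called.

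Relatives of the 10 genes that are not restricted to intercalated cells gave 0 calls of 9 in males and 1 of 9 in females, close to the 15.2% and 14.5% of all probe sets. The 1 called, the sulphate transporter Slc26a2, was higher in BPH/2J females by 0.22 (SE 0.0541). Slc4a2, the widely expressed relative of Slc4a1, differed by -0.11 in males and -0.12 in females (adjusted P = 0.128 and 0.0713). In the proximal tubule, where ammonium is made from glutamine, 8 of 10 listed genes were measured. One of them, the glutamine transporter Slc38a3, was higher in BPH/2J males by 0.53 (SE 0.0699) and lower in BPH/2J females by 0.50 (SE 0.119), and its interaction was -1.04 (SE 0.143, adjusted P = 9.12e-05). No other gene of that list was called in males, and in females the carbonic anhydrase Car4 was higher by 0.15 and the glutamate transporter Slc1a1 lower by 0.15.

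Markers of neighbouring cells were read in the same comparisons. Of 9 principal cell genes, male BPH/2J mice had 2 higher and 1 lower and female BPH/2J mice 4 higher, with medians of -0.01 and 0.08. The sodium channel subunits Scnn1b (0.31 and 0.46) and Scnn1g (0.33 and 0.42) led them, and aquaporin 2 lay between 10.37 and 10.89 over all 24 arrays. Of 8 distal convoluted and connecting tubule genes, male BPH/2J mice had 1 higher and 2 lower and females 4 lower, among them the thiazide-sensitive cotransporter Slc12a3 (-0.33 and -0.22). Of 6 thick ascending limb genes, 3 were higher in males and 2 in females, led by Cldn16 (0.52 and 0.59), and of 8 proximal tubule genes 1 was lower in each sex. Between the sexes most calls in the distal lists were also higher in females: 7 and 5 of the 8 distal convoluted and connecting tubule genes, 5 and 5 of the 6 thick ascending limb genes, and 4 and 6 of the 9 principal cell genes were higher in females of BPN/3J and BPH/2J. The exceptions were Cldn10 of the thick ascending limb, lower in females by 0.13 and 0.14 in the 2 strains, and the principal cell aquaporin Aqp3, lower by 0.16 in BPN/3J. Proximal tubule genes were mixed, with 4 higher and 2 lower in BPN/3J females and 3 higher and 3 lower in BPH/2J females.

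Averaged per array, the 9 principal cell genes spanned 9.44 to 9.70 and 9.44 to 9.74 in male BPN/3J and BPH/2J, and 9.56 to 9.82 and 9.75 to 9.92 in the females of these lines, so in females it moved with strain, and in BPH/2J it separated the sexes without overlap. With this mean as a covariate, 6 of the 10 genes were called higher in BPH/2J males, against 7.25% of all probe sets. In BPH/2J females 2 were, Rhbg (0.77, SE 0.0746) and Atp6v1g3 (0.30, SE 0.0787), against 2.18%. The female strains shared little of the range of this mean, so the fit in females hardly tells the covariate and strain apart. The 10 sex calls in BPH/2J became 2, Rhbg (0.43, SE 0.0896) and Foxi1 (0.49, SE 0.107), where 4.82% of probe sets were called higher in place of 15.6%, and in that fit the covariate and sex can hardly be told apart. In BPN/3J 8 genes were called, against 9.98%. With the red blood cell mean as the covariate, 3 strain calls were left in males (Rhbg, Atp6v0d2 and Atp6v1g3, against 4.63% of probe sets) and 6 in females (against 5.3%), and 8 sex calls in BPN/3J (against 6.13%) and 3 in BPH/2J (Rhbg, Atp6v1b1 and Foxi1, against 5.33%). The sexes shared little of the range of the red blood cell mean. In BPH/2J only female array 1, at 6.27, reached the male range of 6.21 to 6.37. Tfrc, a gene of this mean, was lower in females by 0.76 in BPN/3J and 0.78 in BPH/2J. In the sex fits this covariate and sex can thus hardly be told apart. Some differences stayed near their size with the red blood cell covariate while their errors grew. That of Slc4a1 in males was 0.21 with an SE of 0.0687 in place of 0.22 with 0.0550. The sex difference of Aqp6 in BPH/2J was 0.32 with an SE of 0.132 in place of 0.30 with 0.0716. Other differences moved. With the principal cell covariate the median of the 10 genes was 0.16 in place of 0.25 for strain in females. For sex in BPH/2J it was 0.14 in place of 0.33, and 0.24 with the red blood cell covariate. With the latter the median rose to 0.29 for strain in females. For sex in BPN/3J it rose to 0.34 in place of 0.28.

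Adrenal cortex genes were brighter on average in females, with wide spread. Their mean per array had a median of 6.19 in male BPN/3J and 6.42 in male BPH/2J against 9.15 and 9.66 in the females, and ranged from 5.37 to 10.23 among female and from 5.43 to 8.81 among male arrays. All 8 measured were higher on average in females of each strain, by a median of 1.66 in BPN/3J and 2.04 in BPH/2J, of which 0 and 1 were called. The hepatocyte and adrenal cortex means were taken as covariates. In females of BPN/3J 8 of the 10 intercalated cell genes were then called higher, against 14.6% of all probe sets. In females of BPH/2J 9 were, against 11%, and Aqp6 was lost. By strain 6 were called higher in males, against 7.1%, and 6 in females, against 7.41%. In females Slc4a1 (adjusted P = 0.0527) and Slc26a4 (adjusted P = 0.0711) were lost. The part of other cells in these differences was not tested beyond these fits, which were added after the data were seen.

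**Figure D4:**
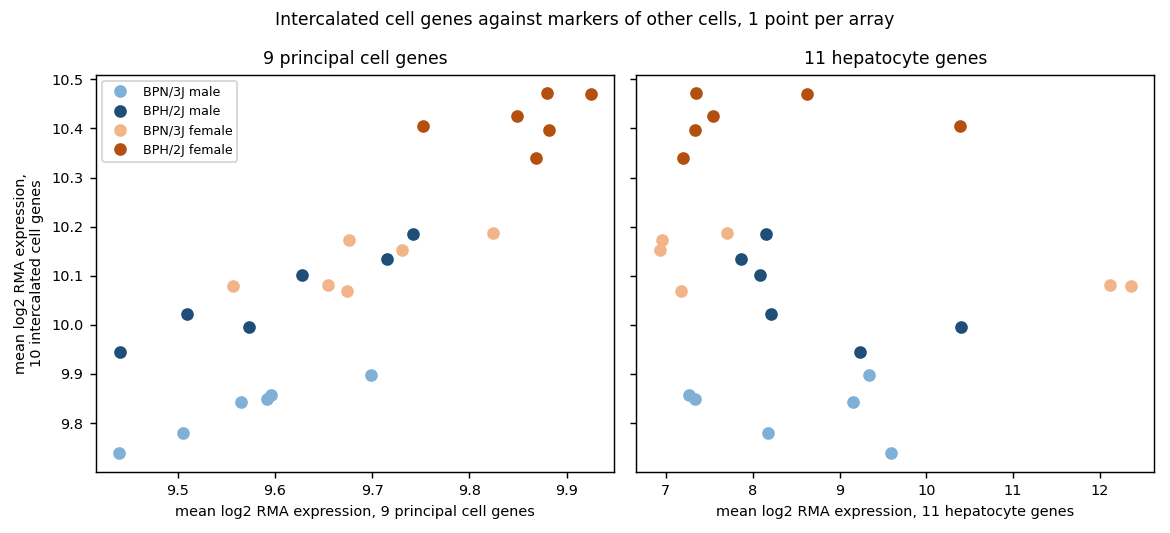
Mean log2 RMA expression of the 10 intercalated cell genes on each of the 24 arrays against the mean of 9 principal cell genes (left) and of 11 hepatocyte genes (right). At a given principal cell level the BPH/2J male arrays lie above the BPN/3J male arrays. Female strains share little of that axis. BPN/3J female arrays span 9.56 to 9.82, and of the BPH/2J female arrays only array 3, at 9.75, falls within that range. The 2 BPN/3J female arrays with hepatocyte means of 12.12 and 12.36 lie within their group on the vertical axis.

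Within groups the 10 genes tended to rise and fall together from mouse to mouse. After the group mean was taken from each value, 43 of the 45 pairs of genes had a positive Pearson correlation over the 24 arrays, from -0.08 for Foxi1 with Aqp6 to 0.82 for Rhcg with Slc26a4, with a median of 0.45. These are descriptions, since the values of an array share 1 RNA sample and 1 hybridisation. Rhcg, which did not differ by strain, had among the closest ties to the others, at 0.77 with the mean of the other 9 genes. Foxi1 had the loosest, at 0.29, and Rhbg lay between at 0.52. The mean of the 10 genes correlated at 0.83 with the principal cell mean and 0.77 with the other intercalated cell genes. It correlated at 0.68 with the thick ascending limb, 0.55 with the distal convoluted and connecting tubule, and 0.29 with the proximal tubule. The correlation was 0.49 with the other V-ATPase subunits, 0.008 with red blood cells, -0.36 with hepatocytes and -0.38 with adrenal cortex. Slc4a1 on its own correlated at 0.70 with the principal cell mean and 0.19 with that of red blood cells.

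**Figure D5:**
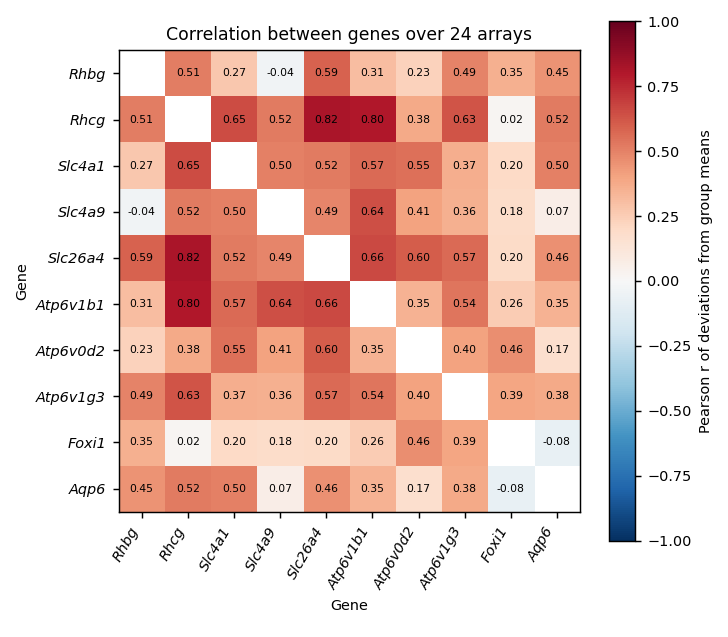
Pearson correlation between each pair of the 10 genes over 24 arrays after subtraction of the group means. Rhcg, Slc26a4 and Atp6v1b1 form the warmest block, and the palest cells are those of Foxi1 with Rhcg and Aqp6 and the pairs of Slc4a9 with Rhbg and Aqp6.

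Outside the 10 genes, the 5 single-symbol probe sets whose deviations were most like those of the members' mean were the nuclear receptor Esrrb (r = 0.90), the sodium channel subunit Scnn1b (0.83), the zinc transporter Slc39a13 (0.83), the potassium channel Kcnq1 (0.83) and the transporter Abcc4 (0.83), each over 24 arrays. With the group means left in, the same correlations were 0.66, 0.95, 0.56, 0.70 and 0.82.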

How the data were processed

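Kidney RNA of 24 mice was hybridised to 1 array each, in 4 groups of 6 taken from the strain and gender labels. The authors deposited log2 expression values after RMA (background correction, quantile normalisation and summarisation); the RMA software and its version are not given in the sources used here. RMA compresses differences of dim probe sets. Arrays give no read depth, and their number limits the precision. Symbols came from the platform annotation: of 28853 probe sets 21159 carry 1 symbol, 1881 several and 5813 none. All probe sets were fitted with limma 3.58.1 in R 4.3.3, strain within sex and sex within strain on 12 arrays each and the interaction on 24 arrays, with P values adjusted over all probe sets, by Bonferroni for the strain comparisons as in the study's methods and by Benjamini-Hochberg throughout. The fit was tested on simulated data. The 10 genes were named in full, the other lists by counts and up to 4 genes with the largest mean absolute strain difference, and the 5 most alike genes by correlation. The genes and lists were chosen with earlier results of these data known. Titles number the mice within groups but array batches are not given in the sources used here, so their part was not tested. Alternatives were the methods' t-test, other scalings, filters, fits and thresholds, omission of arrays and 3 covariates added after the data were seen. An alternative with other probe sets could not be run, since each gene has 1. Promoter sequences were read from RefSeq (GRCm38.p6) with Python 3.11.15, and Rhbg, Slc4a1, Slc4a9 and Atp6v0d2 are named without sequence. Slc4a9 was left out because the sequence of its chromosome is not printed here.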

Additional observations from a re-analysis of the deposited data

Results flagged for a closer look

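In 40 gene-by-group sets of 6 arrays, the lowest or highest array stood apart by Dixon's criterion in 1, where chance alone marks about 1 set in 20. Slc26a4 (pendrin) on BPH/2J female array 4 was 9.84, and the nearest other array of that group was 10.02, a gap of 0.63 of the group's range. Without that array the strain difference in Slc26a4 in females was 0.24, in place of 0.20.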

How the results depend on the processing

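Rhbg passed Bonferroni in both sexes under every alternative run. In the strain comparisons Bonferroni called 1 of the 10 genes in each sex and Benjamini-Hochberg 5 in males and 8 in females. In females Bonferroni called 2 with a fit to all 24 arrays and 3 with trended, robust variances. The Benjamini-Hochberg count in females was 5 without BPN/3J female arrays 2 and 5, where Slc4a1, Slc26a4 and Atp6v1b1 had adjusted P = 0.0998, 0.160 and 0.0521, and 2 with the principal cell covariate, and in males it was 3 with the red blood cell covariate. The sex counts of 8 in BPN/3J and 10 in BPH/2J were 2 and 2 by Bonferroni, and the latter was 3 and 2 with the red blood cell and principal cell covariates. The methods' t-test gave 1 and 1 by Bonferroni and 4 and 7 by Benjamini-Hochberg, with 0 interactions. Why the counts moved was not tested. With 1 array left out, the Bonferroni strain counts stayed at 1, the Benjamini-Hochberg counts were 5 to 7 in males and 6 to 8 in females, the sex counts 8 to 9 and 10, and the interaction count 0 to 1.

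Same-numbered mice are different animals and were not taken as pairs. Their deviations correlated at -0.567 to 0.444, and these values cannot tell whether the numbers mark a shared order of processing. A replicate block gave 1 Bonferroni call in each sex, 4 and 6 Benjamini-Hochberg strain calls, 9 and 10 sex calls and 0 interactions.

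Signs turned only for values near 0. The Rhcg strain difference in males was 0.00033 with a common median, 0.0099 after quantile normalisation and 0.0026 with hepatocyte and adrenal covariates, and -0.034 to 0.043 with 1 array left out. In females it was -0.0053 without arrays 2 and 5, -0.013 with the red blood cell and -0.067 with the principal cell covariate, and -0.011 to 0.026 with 1 array left out. The Rhcg interaction was -0.00025, -0.00033 and -0.088 under the same 3 settings. That of Atp6v0d2 was -0.0022 with a common median, -0.0093 without arrays 2 and 5 and -0.075 with the principal cell covariate, and that of Aqp6 -0.015 and -0.055 under the last 2. With the principal cell covariate those of Slc4a9, Atp6v1b1 and Atp6v1g3 were -0.034, -0.029 and -0.028. With 1 array left out, the interaction ran from -0.036 to 0.040 for Rhcg, -0.026 to 0.031 for Atp6v0d2, -0.062 to 0.023 for Slc26a4, -0.055 to 0.0069 for Slc4a1 and -0.0039 to 0.081 for Aqp6. None of these passed a threshold.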
